A study of Mus musculus with 4 samples.

Results

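Transcripts of peripheral nerve that lie within muscle were examined through 7 genes, the myelin and Schwann cell genes Pmp22, Mbp, Mag and S100b and the neurofilament genes Nefl, Nefm and Nefh. The members were fixed by name, and every probe set that the platform annotation assigned to 1 of them alone was taken, which gave 10 of the 12422 probe sets tested (Pmp22, Mbp and Mag have 2 each). The muscle was gastrocnemius and soleus combined, from male mice aged 6.5 months on a C57BL/6x129 background, fed chow freely and taken at rest without treatment. Mice lacking the corticotropin-releasing factor receptor 2 (Crhr2-/-, here KO) were compared with wild-type littermates (Crhr2+/+, here WT), with 4 mice per genotype. RNA of 2 mice was pooled for each Affymetrix U74Av2 array, a 1-colour array of short probes, so each genotype has 2 arrays (n = 2) and the spread given below is between pools. The sources used here do not describe the deleted part of Crhr2 or the cells in which the loss was induced. Crhr2 itself read 154 and 192 in the WT pools and 100.4 and 75.1 in the KO pools on its brighter probe set, and it overlapped between genotypes on its dim one.

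Motor and sensory axons reach muscle fibres wrapped in Schwann cells, which lay down myelin around the larger axons. Compact peripheral myelin holds the tetraspan membrane protein PMP22 and myelin basic protein (MBP), which binds the inner faces of the membrane together, while myelin-associated glycoprotein (MAG) sits in the membrane that faces the axon. S100b encodes a calcium-binding protein used as a Schwann cell marker, also made by fat cells. Neurofilaments, the intermediate filaments that set axon calibre, are built from the light, medium and heavy chains encoded by Nefl, Nefm and Nefh. Neurofilament messenger RNA is made mainly in nerve cell bodies, which lie outside muscle. Pmp22 is also expressed outside nerve, and its transcription starts at alternative promoters, of which the upstream one is used chiefly by myelinating Schwann cells.

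The level of a probe set was read against 19 control probe sets with no intended target in labelled mouse RNA, 4 for yeast genes and 15 for antisense strands, chosen after the values were seen. These background controls had medians of 21.0 and 20.9 in the WT pools and 18.9 and 14.7 in the KO pools, in arbitrary intensity units, with highest values of 126 and 121 in the WT pools and 115 and 79.4 in the KO pools. Only 2 of the 10 member probe sets, the brighter ones of Pmp22 and Mbp, stood above the highest background control in all 4 arrays. None of the 3 neurofilament probe sets did so in any array. The deposited table carries no detection calls, so the other members are described by their values without a statement that the transcript was present. All 16 listed genes of skeletal muscle fibres stood above the highest background control in all 4 arrays, among them the muscle creatine kinase Ckm at 5851 ± 399 in the WT pools and 5869 ± 108 in the KO pools (SD, n = 2). The brighter probe set of Crhr2 exceeded the highest background control in both WT pools and in neither KO pool. Its genotype difference had a limma adjusted p of 0.803.

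**Figure D1:**
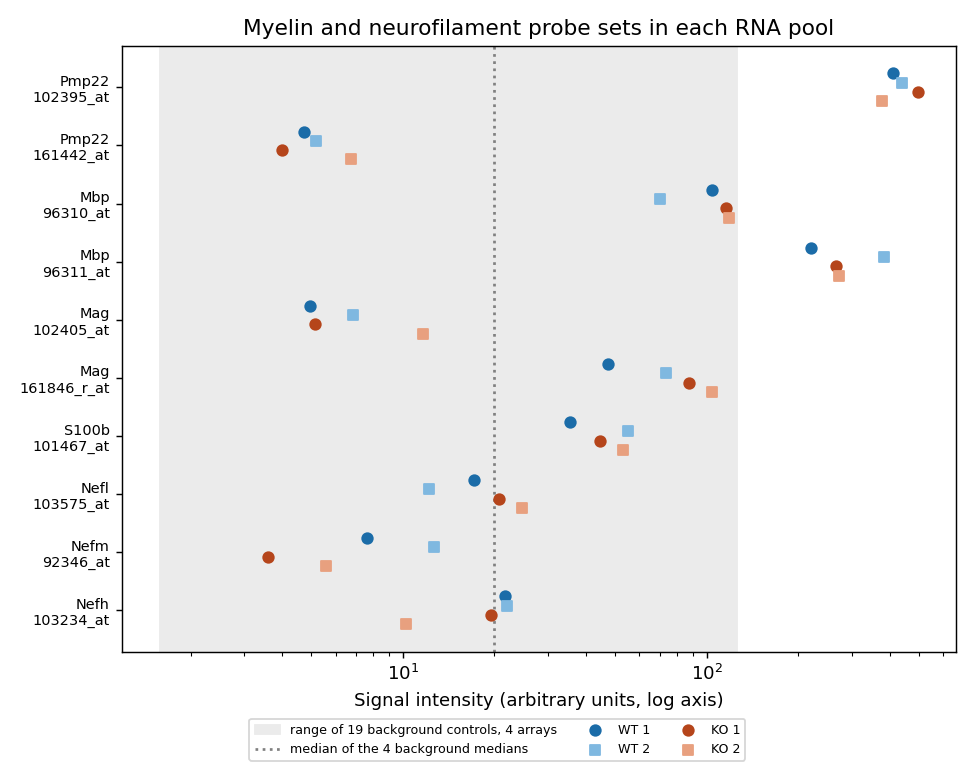
Signal intensity (arbitrary units, log axis) of the 10 member probe sets in the 4 RNA pools. The grey band spans the values of the 19 background controls over the 4 arrays and the dotted line marks the median of their 4 array medians. The brighter Pmp22 probe set (376 to 494) and the brighter Mbp probe set (220 to 382) lie right of the band, and the neurofilament points lie inside it.

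The upstream sequences of Pmp22 are shown because it is the brightest member and because its first exons differ between cell types, a difference that the array values do not resolve. RefSeq lists 4 starts of the gene on build GRCm38.p6. The 250 bases before the first and the last start are written 5′ to 3′ on the plus strand, with each CG dinucleotide in capitals.
Pmp22 first start, chr11:63128732-63128981: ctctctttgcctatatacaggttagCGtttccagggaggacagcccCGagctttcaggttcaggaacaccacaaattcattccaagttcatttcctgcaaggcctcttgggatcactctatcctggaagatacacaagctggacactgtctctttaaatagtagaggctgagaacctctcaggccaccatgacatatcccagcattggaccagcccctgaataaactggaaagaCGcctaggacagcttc
Pmp22 last start, chr11:63132553-63132802: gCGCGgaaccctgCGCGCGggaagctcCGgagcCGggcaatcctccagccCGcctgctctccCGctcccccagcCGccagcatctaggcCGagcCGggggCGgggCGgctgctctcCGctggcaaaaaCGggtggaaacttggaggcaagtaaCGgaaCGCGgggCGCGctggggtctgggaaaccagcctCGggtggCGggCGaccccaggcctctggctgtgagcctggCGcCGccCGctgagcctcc
The window of the first start holds 3 CG dinucleotides and that of the last start 27, against a median of 6 over 32851 windows of the same length in the reference table. The letters TATAAA were absent from both strands of these windows, and 12.4% of all windows held them on either strand. The reference table had such windows for 3 of the 7 members.

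No member changed with genotype past the threshold. By limma, 0 of the 10 probe sets had a Benjamini-Hochberg adjusted p under 0.05, where the background over all 12422 probe sets was 0%, and the smallest adjusted p among the members was 0.908. At an unadjusted p under 0.05 there were 0 members, against 5.43% of all probe sets. The member probe sets were 7 higher and 3 lower in KO on average, and the median log2 fold change was 0.063 against 0.00013 over all probe sets. Both KO arrays stood above both WT arrays for 3 members (background 17%) and below them for 2 (background 17.6%). Those 5 of 10 compare with 34.6% of all probe sets whose genotypes did not overlap. Without WT replicate 2, 6 members were higher and 2 lower without overlap, and without KO replicate 1 the counts were 5 and 3. They were 3 and 4 without WT replicate 1 and 4 and 3 without KO replicate 2. The share of all probe sets was not counted for fits with 1 array left out, where fewer arrays make separation easier. Leaving out WT replicate 1 or KO replicate 2 gave a median of -0.0057 or -0.027, and leaving out WT replicate 2 or KO replicate 1 gave 0.18 or 0.16. An exact two-sided permutation test cannot give less than p = 0.3333 with 2 arrays against 2. The probe sets of a gene share its transcript, so the 10 are not independent.

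Pmp22 did not separate the genotypes. Its brighter probe set, 102395_at, read 409.6 and 439 in the WT pools and 494 and 376 in the KO pools, so the KO pools held both the highest and the lowest value and enclosed the WT pools. The means were 424 ± 20.5 in the WT pools and 435 ± 83.4 in the KO pools (SD, n = 2), and the log2 fold change was 0.024 ± 0.16 (SE; 95% confidence interval -0.37 to 0.42, limma adjusted p = 0.991). That interval spans ratios of KO to WT from 0.774 to 1.34, the tightest range on the fold scale among the members above background. The dim probe set of Pmp22, 161442_at, lay between 3.99 and 6.76 in the 4 arrays, below the background median of each. It was lowest in KO replicate 1, the array in which the brighter one was highest.

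Mbp gave opposite readings on its probe sets. The brighter one, 96311_at, read 220 and 382 in the WT pools and 267 and 272 in the KO pools. The WT pools thus differed by 1.74-fold and enclosed the KO pools, which differed by 1.02-fold. The log2 fold change was -0.10 ± 0.26 (95% confidence interval -0.72 to 0.52). The dimmer one, 96310_at, read 104 and 70.3 in the WT pools and 116 and 118 in the KO pools, so that both KO pools lay above both WT pools, with a log2 fold change of 0.39 ± 0.28 (95% confidence interval -0.28 to 1.06, adjusted p = 0.908). WT replicate 2 was the highest array on the brighter Mbp probe set and the lowest on the dimmer one. Without that array the brighter probe set had a log2 fold change of 0.28 and the dimmer one 0.15. Without WT replicate 1 the values were -0.48 and 0.64. The annotation used here does not say which Mbp transcripts each probe set detects.

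WT replicate 2 also stood apart in markers of other cells. Of the 4 arrays it had the highest level of 7 of 10 liver genes, with albumin (Alb) at 1016 there and at 78.7 to 230.0 in the other 3 arrays, and the lowest level of 9 of 10 lymphocyte genes. The summed level of the lymphocyte list was 1492 and 719 in the WT pools and 1236 and 1569 in the KO pools. The part of these cell types in the Mbp values was not tested. All 9 measured exocrine pancreas genes peaked in KO replicate 1. Their summed level was 13133 there and 4006 in the other KO pool, against 1757 and 1695 in the WT pools. The part of this array's composition in the values of the members was not tested. Ratios of 3′ to 5′ signal of the actin controls were 0.624 and 0.686 in the WT pools and 0.729 and 0.866 in the KO pools. They were thus higher in both KO arrays, and their part in the differences was not tested.

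Mag was higher on average in KO on both of its probe sets, and neither difference passed the test. Its brighter probe set, 161846_r_at, read 47.4 and 73.5 in the WT pools and 87.5 and 104 in the KO pools, so the KO pools lay above the WT pools. The means were 60.4 ± 18.5 in the WT pools and 95.8 ± 11.8 in the KO pools (SD, n = 2). The log2 fold change was 0.58 ± 0.32 (95% confidence interval -0.20 to 1.36, limma adjusted p = 0.908). It was 0.84 when WT replicate 2 was left out and 0.32 when WT replicate 1 was. The suffix r in its name marks a probe set that Affymetrix designed under relaxed rules for probe selection. The second Mag probe set, 102405_at, read 4.96 and 6.85 in the WT pools and 5.13 and 11.6 in the KO pools, below the background median of each array, and its genotypes overlapped. Both Mag probe sets were lowest in WT replicate 1 and highest in KO replicate 2.

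S100b overlapped fully between the genotypes. Its probe set, 101467_at, read 35.5 and 55.0 in the WT pools and 44.6 and 52.8 in the KO pools, the KO values lying between the WT values. The log2 fold change was 0.098 ± 0.36 (95% confidence interval -0.78 to 0.97). Without WT replicate 1 it was -0.14, and without WT replicate 2 it was 0.34. Genes of adipocytes, which also make S100b, were highest in WT replicate 1 for 6 of 10 measured. S100b was lowest in that array, and the part of adipocytes or of other cells in the S100b values was not tested. The summed level of the adipocyte list was 21245 and 17139 in the WT pools and 18236 and 16068 in the KO pools.

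**Figure D2:**
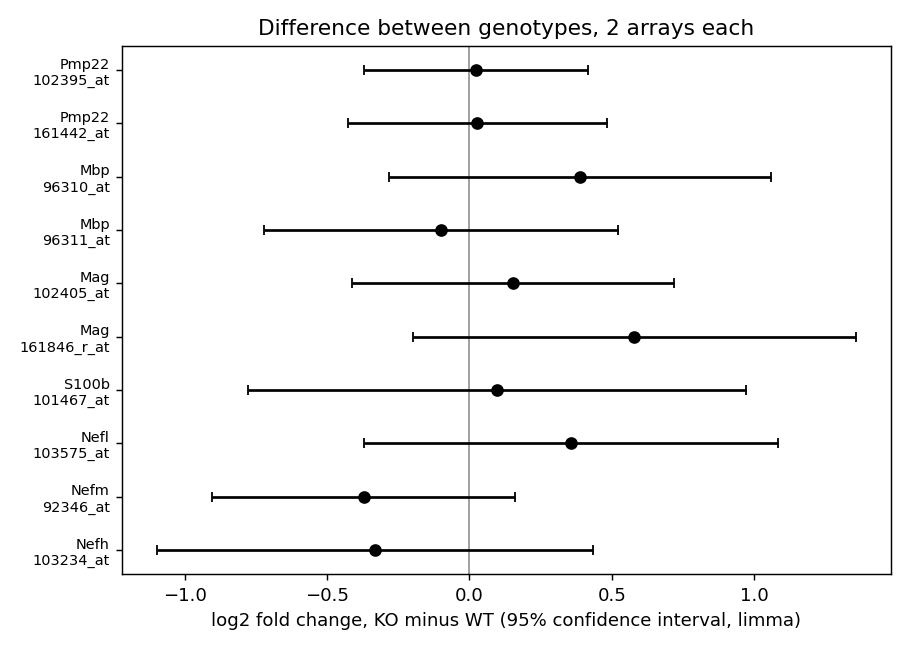
log2 fold change (KO minus WT) of each member probe set on the log2(intensity + 14) scale; points are estimates from 2 arrays per genotype and bars the 95% confidence intervals of the limma fit. Every interval crosses 0, and among the wide ones are those of S100b (-0.78 to 0.97), the Mag probe set 161846_r_at (-0.20 to 1.36) and Nefh (-1.10 to 0.43).

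The neurofilament genes were dim, and their log2 fold changes differed in sign. The light chain gene Nefl (103575_at) read 17.2 and 12.2 in the WT pools and 20.7 and 24.6 in the KO pools, with both KO pools above both WT pools. Both Nefl values of the WT pools were below the background median of their array. The log2 fold change of Nefl was 0.36 ± 0.30 (95% confidence interval -0.37 to 1.08). The medium chain gene Nefm (92346_at) read 7.61 and 12.7 in the WT pools and 3.60 and 5.59 in the KO pools, with both KO pools below both WT pools. All 4 values were below the background median of their array. Its log2 fold change was -0.37 ± 0.22 (95% confidence interval -0.90 to 0.16). The heavy chain gene Nefh (103234_at) read 21.7 and 22.0 in the WT pools and 19.6 and 10.2 in the KO pools, the KO pools again lying lower. For Nefh the KO pools differed from each other by 1.91-fold and the WT pools by 1.01-fold, and the log2 fold change was -0.33 ± 0.31 (95% confidence interval -1.10 to 0.43).

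The 3 neurofilament genes had an adjusted p of 0.908 for Nefl and Nefm and 0.910 for Nefh (limma). Their fold changes depend on the pseudocount added before the log, because the readings are of its size. With a pseudocount of 5% of the table's median in place of 20%, the log2 fold changes were 0.53 for Nefl, -0.74 for Nefm and -0.51 for Nefh. With 80% they were 0.16, -0.13 and -0.14. Nefl and Nefm are adjacent protein-coding genes on chromosome 14 of the mouse reference. Their log2 fold changes had opposite signs here, but both confidence intervals crossed 0 and both genes read near the background. Nefh lies on chromosome 11, as does Pmp22, and Mbp, Mag and S100b lie on chromosomes 18, 7 and 10.

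Pools of one genotype often differed by more than the genotypes did. On the log2 scale the larger gap between pools of a genotype exceeded the difference of the genotype means for 7 of the 10 members, near the background of 78% of all probe sets. The exceptions were the brighter Mag probe set, Nefl and Nefm. The median gap between the WT pools was 0.28 over the members and 0.24 over all probe sets, and between the KO pools it was 0.20 and 0.26. The widest gap was in Mbp, at 0.76 on its brighter probe set between the WT pools. In RNA from whole muscle, fewer source cells in a pool and less of a transcript per cell cannot be told apart.

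**Figure D3:**
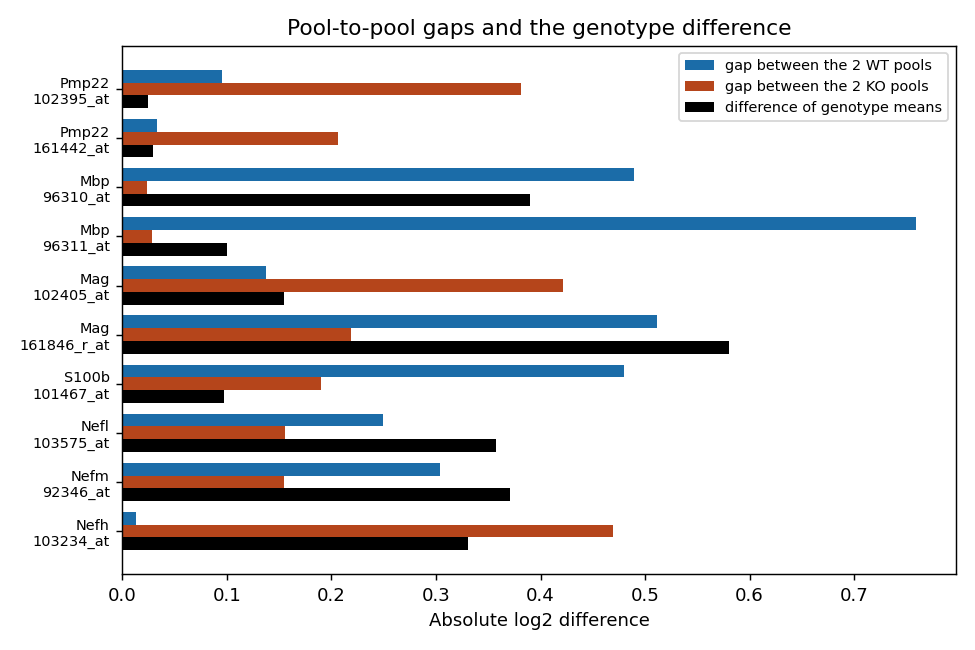
Absolute log2 differences for each member probe set: between the 2 WT pools (blue), between the 2 KO pools (red) and between the genotype means (black). The black bar is the longest of its group only for Nefl, Nefm and the Mag probe set 161846_r_at; the WT gap of Mbp 96311_at reaches 0.76.

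Other genes of myelin and Schwann cells did not pass either. Of 30 listed genes, 15 were measured by a probe set of their own. In KO 8 were higher and 7 lower on average, and the median log2 fold change was 0.086, against -0.0044 over all 8251 genes. The median was 0.22 without KO replicate 1, 0.020 without WT replicate 2 and 0.0067 without either of the other arrays. By limma 0 of the 15 passed over all probe sets. At an unadjusted p under 0.05 there was 1, Ugt8a, against 5.43% of all probe sets. The genotypes did not overlap for 5, with 3 higher and 2 lower in KO, near the background of 34.6% of all probe sets. The higher ones were Erbb3, the neuregulin receptor of Schwann cells, Egr2, the transcription factor that turns on myelin genes, and the myelin lipid-raft protein Mal.

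Erbb3 read 72.0 and 60.0 in the WT pools and 123 and 85.3 in the KO pools (log2 fold change 0.55 ± 0.30), but 10.4 and 6.59 in the WT pools and 5.54 and 5.003 in the KO pools on its dim probe set, with the opposite direction. Egr2 read 63.1 and 46.0 in the WT pools and 89.0 and 73.4 in the KO pools (0.48 ± 0.32). Mal read 40.2 and 55.5 in the WT pools and 57.6 and 73.8 in the KO pools (0.37 ± 0.34). No value of Egr2 or Mal exceeded the highest background control of its array. Sox10, the transcription factor that defines the Schwann lineage, read 76.5 and 70.5 in the WT pools and 57.0 and 87.6 in the KO pools, so its genotypes overlapped.

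The lower ones were Ugt8a and the adhesion molecule L1cam. Ugt8a, which makes the myelin lipid galactosylceramide, read 19.2 and 29.9 in the WT pools and 7.62 and 6.83 in the KO pools (log2 fold change -0.85 ± 0.29, limma adjusted p = 0.846), with 3 of the 4 values below the background median of their array. L1cam read 47.7 and 59.3 in the WT pools and 35.5 and 34.9 in the KO pools, all below the highest background control of their array. The myelin enzyme gene Cnp was at 5.95 to 7.40 in 3 arrays and at 21.1 in KO replicate 2. The summed level of the list was 1144 and 1272 in the WT pools and 1328 and 1192 in the KO pools, and the genotypes overlapped.

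Genes of axons and nerve terminals showed no common direction. Of 30 listed, 25 were measured, 12 higher and 13 lower in KO, at a median log2 fold change of -0.023 (-0.10 without WT replicate 2). By limma 0 passed over all probe sets. At an unadjusted p under 0.05 there were 2, Scn8a and Syt1, against 5.43% of all probe sets. The genotypes did not overlap for 7, with 3 higher and 4 lower in KO, against 34.6% of all probe sets. Scn8a, a sodium channel of the nodes of Ranvier, read 41.2 and 51.0 in the WT pools and 16.3 and 12.8 in the KO pools, with a log2 fold change of -1.07 ± 0.34 (limma adjusted p = 0.813). Both KO values were below the background median of their array, and no value exceeded the highest background control. The dim probe set of Scn8a differed by -0.15 ± 0.16. The synaptic vesicle calcium sensor Syt1 read 4.52 and 1.32 in the WT pools and 14.6 and 25.6 in the KO pools (0.999 ± 0.271, limma adjusted p = 0.803). Both WT pools and KO replicate 1 were below the background median of their array. No Syt1 value exceeded the highest background control.

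Prph, the gene of peripherin, an intermediate filament that assembles with neurofilaments in peripheral axons, was lower in KO on both of its probe sets. It read 64.5 and 41.1 in the WT pools and 26.9 and 23.5 in the KO pools on the brighter one (log2 fold change -0.75 ± 0.37, limma adjusted p = 0.908) and differed by -0.43 ± 0.36 on the other. No Prph value exceeded the highest background control of its array. The direction of Prph was that of Nefm and Nefh and the opposite of Nefl. The growth cone gene Gap43 and the neuronal ubiquitin hydrolase Uchl1 overlapped between genotypes, at log2 fold changes of 0.22 ± 0.33 and 0.26 ± 0.27. The summed level of the list was 1847 and 1696 in the WT pools and 1666 and 1736 in the KO pools.

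Markers of central oligodendrocytes, which would accompany Mbp and Mag in spinal cord or brain, were near the background. The 3 measured genes summed to 60.5 and 28.3 in the WT pools and 48.4 and 58.3 in the KO pools, and on the brightest probe set of each gene the genotypes overlapped. Mog read 15.8 and 6.35 in the WT pools and 6.98 and 30.1 in the KO pools. Mobp, read from the brightest of its 4 probe sets, was at 26.7 and 12.6 in the WT pools and 27.2 and 14.7 in the KO pools. The genotypes did not overlap on its 3 dimmer probe sets, which went in different directions (log2 fold changes of -0.63 ± 0.25, 0.12 ± 0.20 and 0.30 ± 0.23).

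Muscle genes that respond to loss of nerve supply were 3 higher and 8 lower in KO, of 11 measured, at a median log2 fold change of -0.11. KO replicate 2 was the lowest array for 7 of the 11 and KO replicate 1 for 1. Without overlap 1 was higher and 3 were lower in KO, where 34.6% of all probe sets did not overlap. By limma 0 passed over all probe sets and 2 had an unadjusted p under 0.05, against 5.43% of all probe sets. Chrng, the acetylcholine receptor subunit of fetal and denervated muscle, read 44.9 and 64.1 in the WT pools and 15.4 and 27.0 in the KO pools (log2 fold change -0.97 ± 0.38, limma adjusted p = 0.886). Its other probe set also had both KO pools below both WT pools (-0.69 ± 0.30). Neither Chrng probe set exceeded the highest background control in any array. KO replicate 1 was below its background median on the brighter one, and only 1 array was above its median on the other. Ankrd1, a stretch-responsive protein, differed the other way, at 0.82 ± 0.30. Genes of skeletal muscle fibres were 9 higher and 7 lower, with a median of 0.013 and with Des and Myh1 at -0.19 ± 0.13 and -0.16 ± 0.12. The 3 fibre genes lowest in WT replicate 1, Myh7, Tnni1 and Myl2, were highest in WT replicate 2. In the WT pools Myh7 read 1968 and 3666, Tnni1 1013 and 1783, and Myl2 2921 and 4431. The brighter Mbp probe set and S100b were also lowest in WT replicate 1 and highest in WT replicate 2. The part of muscle fibre composition in the values of the members was not tested.

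Most markers of connective and fat tissue were highest in WT replicate 1. Genes of fibroblasts and tendon, cells that also make Pmp22, were 5 higher and 6 lower in KO (median log2 fold change -0.036), with Mfap5 at -0.40 ± 0.23 (-0.18 ± 0.52 on its other probe set) and Pdgfra at -0.39 ± 0.24 (0.077 ± 0.37 and 0.073 ± 0.37 on its other probe sets). Of these 11 genes 8 peaked in WT replicate 1. Adipocyte genes were 5 higher and 5 lower (median -0.096), with Cidea at 1.48 ± 0.40 and Fabp4 at -0.76 ± 0.27. Cidea exceeded the highest background control in 1 array only and Fabp4 in all 4. Lymphocyte genes were 8 higher and 2 lower (median 0.35), with Cd79a at 0.89 ± 0.48 and Igha at 1.30 ± 0.64 on its brightest probe set. The dimmer probe sets of Igha gave -0.83 ± 0.24, with both KO pools below both WT pools, and 0.27 ± 0.26. By limma 0 genes of these lists, of the muscle fibre list and of the oligodendrocyte list passed over all probe sets. On the probe set used, 2 adipocyte genes, Cidea and Fabp4, had an unadjusted p under 0.05, against 5.43% of all probe sets.

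Exocrine pancreas genes were all higher in KO, 9 of 9, at a median log2 fold change of 2.14, with Zg16 and Clps at 2.94 ± 0.54 and 2.14 ± 0.36. Liver genes were 9 lower and 1 higher (median -0.85), with Rbp4 and Serpina1b at -1.11 ± 0.18 and -0.97 ± 0.21. By limma 0 genes of either list passed over all probe sets. An unadjusted p under 0.05 was met by 9 and 4, against 5.43% of all probe sets. Both lists were chosen with these arrays' values known.

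**Figure D4:**
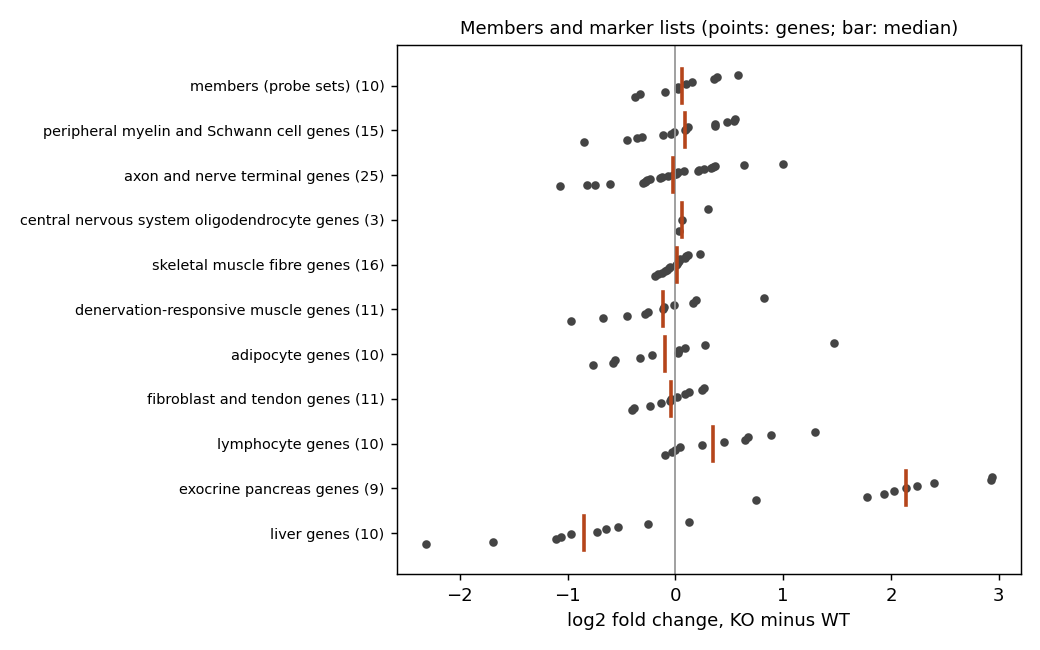
log2 fold change (KO minus WT) of the 10 member probe sets and of the measured genes of each marker list, 1 probe set per gene; each point is a probe set, the red bar is the median and the number of points stands in brackets. The medians of members (0.063), myelin and Schwann cell genes (0.086) and axon genes (-0.023) lie close to 0, and that of the exocrine pancreas list lies at 2.14.

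The pattern over the 4 arrays of the brighter Pmp22 probe set was most like those of Snx1, a sorting nexin of endosomes, Arl3, a small GTPase of cilia, and Glo1, an enzyme that clears methylglyoxal. Likeness was the root mean square difference of log2 values after each probe set was centred on its own mean, over 4 arrays, and was 0.015, 0.016 and 0.019. Among 5615 candidate probe sets 434 lay within 0.1, so many genes lay close to this pattern. In it KO replicate 1 was highest and KO replicate 2 lowest. Snx1 read 161 and 176 in the WT pools and 199 and 146 in the KO pools.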

How the data were processed

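Gene expression was measured on 4 Affymetrix U74Av2 arrays, 2 WT and 2 KO, each with RNA pooled from 2 mice, per the labels' protocols. The titles gave the groups, since the genotype and tissue fields of the labels are swapped. Nothing beyond separate pools is stated about replication. The deposited values are signal intensities on a linear scale, 1 for each probe set on each array. The deposited values were on 1 scale, with a mean of 200.2 in every array once the outer 2% at each end were trimmed. Array medians of log2(intensity + 14) differed by 0.061, so no scaling was added. For the summary algorithm, background correction and genome build the sources used here give nothing.

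After removal of 66 controls from 12488 probe sets, all 12422 others were tested on log2(intensity + 14). The added 14 is 20% of the table's median and understates the fold changes of dim probe sets. The genotypes were compared with limma 3.58.1 (R 4.3.3; eBayes with trend), two-sided, with Benjamini-Hochberg adjustment over all probe sets and a threshold of 0.05. It was tested on data simulated with planted differences larger than that of any member, which does not show its sensitivity at the members' size. Group values are means ± SD, and log2 fold changes are given ± SE. The annotation gave 1 symbol to 10833 probe sets, several to 396 and none to 1193, and symbols were updated through GRCm38.p6 gene identifiers. The number of arrays limits the precision.

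The members and the 10 gene lists were chosen with earlier results of these data known. Lists are described by counts and medians, with the brightest probe set per gene. The genes named were all members, Crhr2, the 2 genes of each list with the smallest p, and Cnp, Prph, Gap43 and Uchl1. Other genes named were chosen after their values were seen. Pools with the same replicate number did not deviate together (correlation 0.00345 across probe sets), so the number was not used as a pairing. Alternatives were the pseudocount, a filter on level, median centring, quantile normalization, no trend, the replicate block, each array left out and the mean over a gene's probe sets.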

Additional observations from a re-analysis of the deposited data

How the results depend on the processing

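No alternative made a member pass: 0 of the members and 0 of all probe sets had an adjusted p under 0.05 by limma under each of the 11 alternatives that refit it. The count at an unadjusted p under 0.05 was 664 to 831 of all probe sets (350 of 6211 with the filter) and 0 or 1 of the members. With the replicate number as a block the smallest adjusted p was 0.840 among the members and 0.255 over all probe sets, and no call changed. Of the 10 member values, 5 kept their direction under every alternative that kept them in the fit (the Mbp probe set 96310_at, the Mag probe set 161846_r_at, Nefl, Nefm and Nefh) and 5 reversed when 1 array was left out. Over the 4 fits with 1 array left out, Pmp22 102395_at ranged from -0.17 to 0.21 and was -0.024 without WT replicate 1 and -0.17 without KO replicate 1. S100b ranged from -0.14 (without WT replicate 1) to 0.34, Mbp 96311_at from -0.48 to 0.28 (without WT replicate 2), and Pmp22 161442_at and Mag 102405_at from -0.074 and -0.056 (without KO replicate 2) to 0.13 and 0.37. The cause was not tested. In these fits the lone array of its genotype is assumed to vary like the other genotype. With 1 array left out, the members' median ranged from -0.027 to 0.18. The count with every KO array above every WT array ranged from 3 to 6 and the count below from 2 to 4. Fewer arrays make separation easier, and the share of all probe sets was not counted in these fits. The median of myelin and Schwann cell genes ranged from 0.0067 to 0.22 and that of axon genes from -0.10 to -0.0041. With the mean over all probe sets of a gene these list medians were -0.015 and 0.0086. With the filter on level, 4 member probe sets were left, with a median of 0.21 and 0 lower in KO without overlap. Signal over background limits 8 of the 10 members.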
